A study of Homo sapiens with 4 samples.

Results

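The Krüppel-like factors, or KLF proteins, were compared between colorectal cancer cells given a small interfering RNA (siRNA) against TMEM161A and cells given a negative control siRNA. The set held 10 KLF genes of the 60658 Ensembl gene identifiers in the deposited tables, matched by identifier to the symbols KLF2, KLF3, KLF4, KLF5, KLF6, KLF9, KLF10, KLF11, KLF13 and KLF16. The family was chosen by the higher level of KLF2 after knockdown in both cell lines, seen in earlier results of the same libraries. The KLF2 values are therefore a description, and so are those of the other members, which were listed with the same results known. All 10 members had a mean of at least 1 FPKM (fragments per kilobase of gene and library size) over the libraries and entered the comparison.

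TMEM161A encodes a membrane protein, and the study set its level in colorectal tumours beside proliferation and prognosis. The sequenced samples were cells of HT29 and LIM1215, 2 established lines from human colorectal cancers, with no drug or genetic change stated. Each line gave 1 library from cells with the negative control siRNA (HT29_NC and LIM1215_NC) and 1 library from cells with the TMEM161A siRNA (HT29_si2 and LIM1215_si2). The dose, the time after transfection and the siRNA sequence were not given in the sources used here, and the titles name 1 siRNA only. No group had a replicate and the members were selected on the contrast of the siRNAs, so no difference below was tested or has an error between cultures, and each comparison is repeated in the other line alone.

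KLF proteins are transcription factors that bind GC-rich DNA, the GC box and the CACCC box, through 3 adjoining zinc fingers at their C-terminal end, which all members share with the SP proteins. The rest of each protein differs and sets what it does at a promoter. KLF2, KLF4, KLF5 and KLF6 carry activation domains, KLF3 recruits the corepressor CtBP, and KLF9, KLF10, KLF11, KLF13 and KLF16 recruit the corepressor SIN3. In the gut lining KLF5 is known from the dividing cells of the crypt and KLF4 from the differentiated cells above them, while KLF2 is best known from endothelial cells and resting T cells.

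The stretch before the transcription start is shown for KLF2, KLF4 and KLF5 because the results turn on how far apart these genes moved, and for KLF11 because it was the other member past 2-fold. Sequences are RefSeq promoters on GRCh38.p14, written 5′ to 3′ on the strand of the gene, and end at the base before the annotated start except for KLF11. The KLF2 stretch is chr19:16324576-16324825 on the plus strand, with GC boxes (GGGCGG on either strand) and a match to the MEF2 consensus in capitals.
KLF2: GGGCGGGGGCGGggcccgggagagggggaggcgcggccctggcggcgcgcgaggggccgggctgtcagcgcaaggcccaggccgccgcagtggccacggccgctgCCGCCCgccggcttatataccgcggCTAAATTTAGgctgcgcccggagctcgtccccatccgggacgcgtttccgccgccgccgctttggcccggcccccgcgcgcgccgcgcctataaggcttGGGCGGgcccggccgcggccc
The KLF4 stretch is chr9:107489770-107490019 on the minus strand, with GC boxes and an E-box (CACGTG) in capitals.
KLF4: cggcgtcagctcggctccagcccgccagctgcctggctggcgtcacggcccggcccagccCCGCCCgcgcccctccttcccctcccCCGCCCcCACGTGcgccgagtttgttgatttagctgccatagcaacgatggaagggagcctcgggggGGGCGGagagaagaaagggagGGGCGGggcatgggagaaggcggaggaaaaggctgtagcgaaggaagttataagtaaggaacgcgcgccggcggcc
The KLF5 stretch lies before the downstream of its 2 annotated starts, chr13:73058755-73059004 on the plus strand, with GC boxes and CACCC boxes (CACCC on either strand) in capitals.
KLF5: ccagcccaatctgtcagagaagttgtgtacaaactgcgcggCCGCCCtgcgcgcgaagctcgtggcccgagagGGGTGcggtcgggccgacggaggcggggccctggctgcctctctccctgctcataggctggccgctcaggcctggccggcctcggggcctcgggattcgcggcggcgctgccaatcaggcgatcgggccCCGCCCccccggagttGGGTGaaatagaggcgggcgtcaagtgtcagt
For KLF11, the 30 bases around a cAMP response element (CRE, TGACGTCA) before its downstream start are chr2:10044034-10044063 on the plus strand, with the element in capitals.
KLF11: atttccagccaTGACGTCAccccggtcctg

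Motifs were searched on both strands in the 250 bases before each start. The promoter table matched 8 of the 10 members, with 10 starts. KLF3 and KLF10 had no entry. The KLF2 stretch held 4 GC boxes and the MEF2 match CTAAATTTAG, which begins 120 bases before the start (chr19:16324706-16324715). A MEF2 match was present in 2.80% of all 35116 promoters of that length and in 1.46% of those of the genes compared here. No other member with an entry had one. GC boxes numbered 4 in KLF4, 7 in KLF16, 3 in KLF13, 2 in KLF6 and 6 before the downstream KLF11 start. They were in 42.6% of all promoters and in 63.4% of those of the genes compared here. KLF9, and the upstream start of KLF5, had none in this window. The CRE of KLF11 occurs in 1.65% of all promoters and in 2.49% of those of the compared genes. The E-box of KLF4, present also in KLF6 and before the upstream KLF11 start, occurs in 6.34% and 8.14%. AP-1 sites (TGANTCA) and the CArG box, the site of serum response factor, were in no member promoter of the table, against 6.57% and 1.16% of all promoters. In promoters of the compared genes these shares were 4.45% and 1.06%. With 10 starts and shares this low, nothing is read from either absence. Each motif was counted independently, so matches can share bases. The GC box and the CACCC box can do so, and the CRE before the downstream KLF11 start shares bases with a CACCC box. A match of letters is a description and does not show binding.

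As a check of the labels, TMEM161A itself stood at 42.6 FPKM in the HT29 control and 4.64 in the HT29 knockdown, and at 39.1 and 7.61 in the LIM1215 libraries. Of 12 colon epithelial markers, all were at 1 FPKM or more in both LIM1215 libraries. In each HT29 library 6 were below 1 FPKM, namely CDX1, VIL1, CDH17, GPA33, LGALS4 and KRT20. The check by TMEM161A bears on the siRNA labels only. The line names were taken from the titles, and the identity of the lines was not tested. Keratins KRT8, KRT18 and KRT19 and EPCAM were abundant in both lines. Endothelial markers, of interest because KLF2 is an endothelial factor, were near 0, with a summed level of 6 genes between 0.561 and 0.690 FPKM over the 4 libraries. Of 6 lymphocyte markers, 5 were listed at 0 in each library, and the summed level lay between 0.140 and 0.355. Of 6 fibroblast markers COL1A1 alone exceeded 1 FPKM, and the summed level lay between 6.03 and 18.2. Each unit of FPKM was worth 18.1 to 21.54 fragments per kilobase by estimate, and the member values rested on 44.1 to 15458 estimated fragments. All counting intervals below cover counting error only.

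Across the 10 members, the knockdown libraries held more KLF transcripts than their controls. KLF2 and KLF11 were at least 2-fold higher in both lines, on the scale of log2 of FPKM plus a pseudocount of 1, and no member was 2-fold lower in either. That is 2 of 10 in each line, against 1.85% of the 14803 genes compared in HT29 and 1.68% in LIM1215. Genes 2-fold lower made up 1.95% and 1.78%. In both lines at once, 2 of 10 members were 2-fold higher, against 0.277% of the genes. KLF2 entered through this contrast, so these counts are given without a reading. With a log2 ratio above 0 there were 9 of 10 members in HT29 and 9 of 10 in LIM1215, where 53.9% and 53.1% of all genes lay above 0, and 8 members in both lines, against 36.0%. The median log2 ratio of the members was 0.41 in HT29 and 0.39 in LIM1215, and that of all genes 0.04 and 0.02. The colon epithelial markers had a median of −0.02 in HT29, with 5 of 12 above 0, and of 0.31 in LIM1215, with 11 of 12 above 0, CDX2 at 0.63 and CDX1 at 0.58 among them. In each HT29 library 6 of the 12 markers were below 1 FPKM, so the HT29 median and count say little about direction. The part of the markers in the KLF values was not tested.

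**Figure D1:**
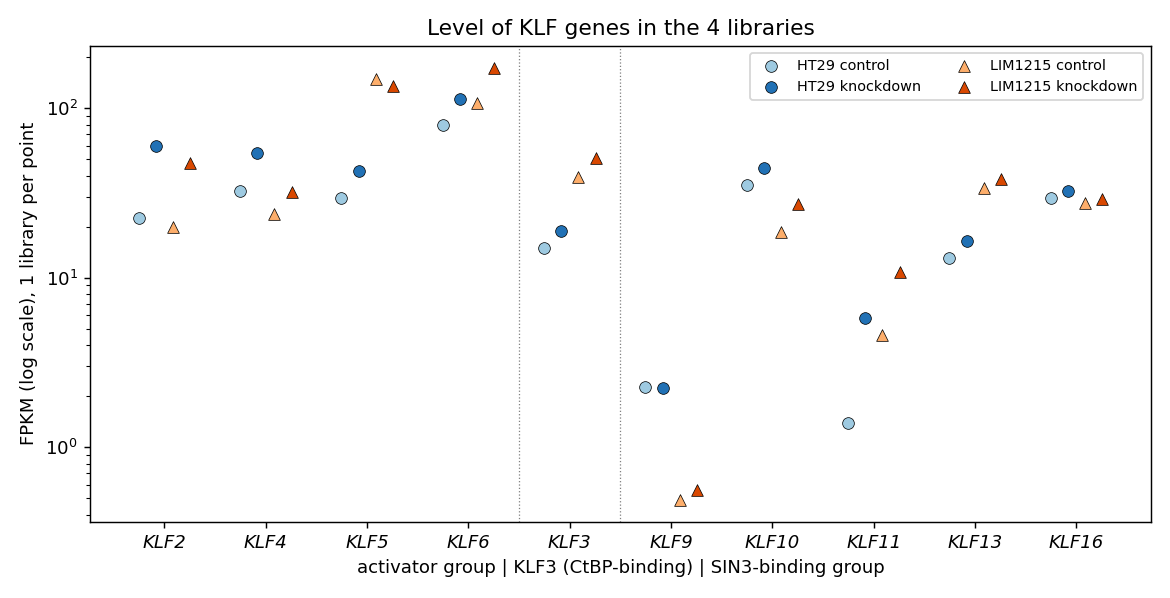
FPKM of each KLF gene on a log scale, 1 point per library, circles for HT29 and triangles for LIM1215, light for control and dark for knockdown. KLF2 and KLF11 show the widest gaps between light and dark points in both lines, KLF5 stands near 30 to 42 FPKM in HT29 and above 135 in LIM1215, and KLF9 is the lowest in both LIM1215 libraries.

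The activator group was described first. KLF2 (ENSG00000127528, chromosome 19, 16324826 to 16328685, plus strand) restrains proliferation and inflammation in endothelium. Its FPKM was 22.6 with the control siRNA and 59.9 with the TMEM161A siRNA in HT29, and 19.9 and 47.7 in LIM1215. Both controls lay close to 20 FPKM and both knockdowns above 45. KLF2 was chosen by this contrast, so nothing is read from that gap. In bulk RNA, more transcript per cell and more cells with the transcript cannot be told apart. Relative to control, knockdown cells stood at 266% in HT29, with a counting interval of 249% to 284%, and 240% in LIM1215, with an interval of 223% to 259%. The log2 ratios were 1.37 and 1.22, ranks 26 and 33 from the top of the 12295 protein-coding genes compared. KLF2 was 6th of the 10 members by level in the HT29 control and 2nd in the knockdown, and 7th and 4th in LIM1215.

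Reads of near-identical copies could bear on KLF2, which has 4 processed pseudogenes. The highest level of any KLF pseudogene in any library was 0.441 FPKM, for KLF2P1 in the HT29 knockdown. No annotated gene overlaps KLF2. KLF2-DT, a noncoding RNA that starts 312 bases away on the other strand, was listed at 0.127 FPKM in the HT29 control and at 0 in the other libraries. Within 250 kb of KLF2, 10 other coding genes were compared, and their log2 ratios ran from 0.01 to 1.03 in HT29, against −0.06 to 0.72 in LIM1215. FAM32A had the highest of these in both lines, with 28.9 FPKM in control and 59.99 in knockdown cells of HT29, and 38.4 and 64.1 in those of LIM1215. The nearest downstream gene, EPS15L1, had log2 ratios of 0.16 and 0.15.

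KLF4 (ENSG00000136826, chromosome 9, 107484852 to 107490482, minus strand) slows the cell cycle and promotes differentiation of the gut epithelium. Its FPKM was 32.5 in the HT29 control and 54.1 in the knockdown, and 23.9 in the LIM1215 control and 32.01 in the knockdown. It was higher in the knockdown of each line, but the LIM1215 knockdown only reached the level of the HT29 control. As a share of the control level, knockdown cells stood at 166% in HT29 (interval 157% to 176%, log2 ratio 0.72) and 134% in LIM1215 (interval 125% to 145%, log2 ratio 0.41). Both intervals cover counting error only, so the difference between the lines was not tested. A noncoding gene on the opposite strand shares 766 bases with KLF4. The strand setting of the counting was not given in the sources used here. The RefSeq start used for the printed KLF4 stretch lies inside the GENCODE span of the gene.

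KLF5 (ENSG00000102554, chromosome 13, 73054976 to 73077541, plus strand) promotes proliferation in the crypt and in many carcinomas. Its FPKM was 29.7 with the control siRNA and 42.5 with the TMEM161A siRNA in HT29, and 149 and 135 in LIM1215. Both LIM1215 libraries lay more than 3 times above both HT29 libraries, and the knockdown was above its control in HT29 and below it in LIM1215. Relative to control, knockdown cells stood at 143% in HT29 (interval 135% to 152%, log2 ratio 0.50) and 90.6% in LIM1215 (interval 87.9% to 93.4%, log2 ratio −0.14). KLF5 was the sole member whose interval lay below 100% in a line. The LIM1215 minus HT29 difference in log2 ratio was −0.64, and it could not be tested with 1 library a group.

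KLF6 (ENSG00000067082, chromosome 10, 3775996 to 3785281, minus strand), a broadly expressed factor known from liver injury, was the most abundant KLF in 3 of the 4 libraries. Its FPKM was 79.2 in the HT29 control and 113 in the knockdown, and 108 in the LIM1215 control and 174 in the knockdown. The LIM1215 control stood just below the HT29 knockdown. As a share of the control level, knockdown cells stood at 143% in HT29 (interval 139% to 147%, log2 ratio 0.51) and 162% in LIM1215 (interval 157% to 166%, log2 ratio 0.69). In contrast to KLF4 and KLF5, its ratio was the higher one in LIM1215.

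**Figure D2:**
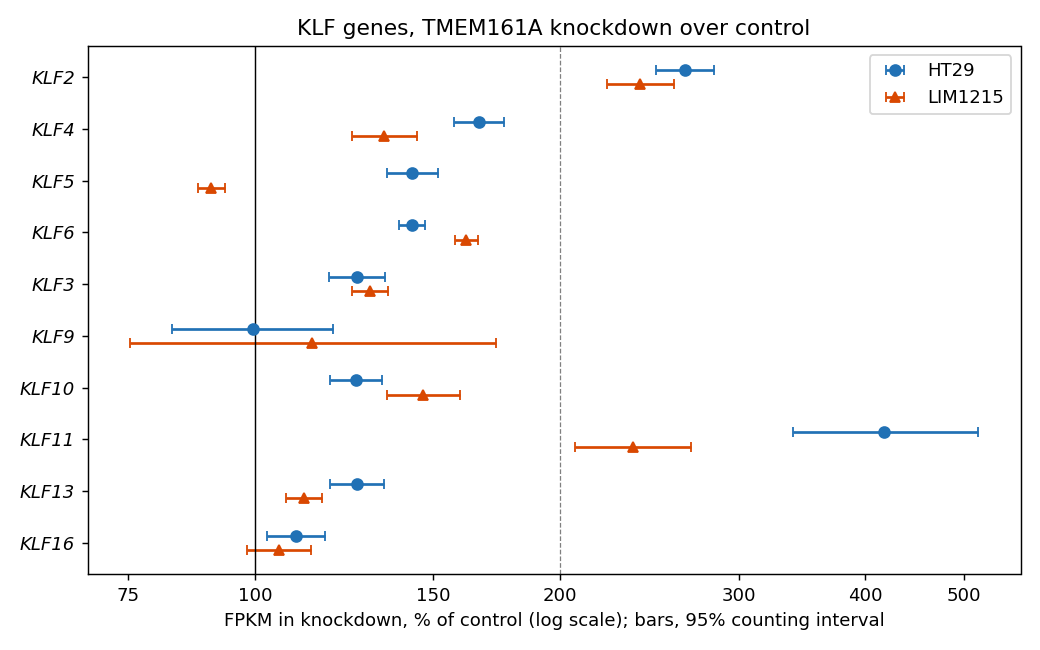
FPKM in the knockdown library as a percentage of the control library of the same line, on a log axis, with the 95% counting interval of each ratio; the solid line marks 100% and the dashed line 200%. KLF2 and KLF11 lie above 200% in both lines, KLF5 lies at 143% in HT29 and 90.6% in LIM1215, and the KLF9 intervals include 100%.

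KLF3 (ENSG00000109787, chromosome 4, 38664197 to 38701517, plus strand) was the sole CtBP-binding member. Its FPKM was 15.02 in the HT29 control and 19.0 in the knockdown, and 39.3 in the LIM1215 control and 51.0 in the knockdown. The levels were higher in both LIM1215 libraries than in both HT29 libraries, whereas the ratios were alike, with 126% of control in HT29 (interval 118% to 135%) and 130% in LIM1215 (interval 125% to 135%). KLF3-AS1, on the opposite strand, shares 730 bases with KLF3 and stood between 0.398 and 0.772 FPKM. Of the genes for CtBP, the corepressor itself, CTBP1 had log2 ratios of 0.56 (HT29) and 0.30 (LIM1215). CTBP2 had −0.07 and 0.17.

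The SIN3-binding group held the widest range of responses in HT29, from −0.0050 for KLF9 to 1.51 for KLF11 in log2 ratio. KLF11 (ENSG00000172059, chromosome 2, 10042849 to 10054836, plus strand) is a TGF-beta-inducible repressor of growth. Its FPKM was 1.39 in the HT29 control and 5.81 in the knockdown, and 4.59 in the LIM1215 control and 10.8 in the knockdown. All 4 values were low beside the activator group, and each knockdown lay well above its control, although the HT29 knockdown was not far above the LIM1215 control. Relative to control, knockdown cells stood at 417% in HT29 (interval 339% to 517%) and 236% in LIM1215 (interval 207% to 269%), resting on 113 and 480 estimated fragments in HT29 and on 319 and 841 in LIM1215. The log2 ratios of 1.51 and 1.08 ranked 13th and 59th from the top among the coding genes. With a pseudocount of 5 they were 0.76 and 0.72, short of 2-fold. A noncoding gene on the other strand that shares 416 bases with KLF11 stood at 0.818 FPKM or less. The 4 coding genes compared within 250 kb had log2 ratios of at most 0.36 in HT29 and 0.16 in LIM1215, and RRM2 among them was lower in both (−0.68 and −0.68).

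KLF10 (ENSG00000155090), also TGF-beta-inducible and the closest relative of KLF11, differed from it in level and in ratio. Its FPKM was 35.4 in the HT29 control and 44.5 in the knockdown, and 18.5 in the LIM1215 control and 27.1 in the knockdown. All 4 values stood above those of KLF11, and both HT29 values stood above both LIM1215 values. As a share of the control level, knockdown cells stood at 126% in HT29 (interval 119% to 133%) and 147% in LIM1215 (interval 135% to 159%). SMAD7, an inhibitor of TGF-beta signalling that KLF10 and KLF11 are known to act on, had log2 ratios of 0.26 and 0.38.

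KLF13 (ENSG00000169926, chromosome 15, 31326835 to 31435665, plus strand), known from T cells for CCL5 expression, had 13.1 FPKM in control and 16.5 in knockdown cells of HT29, and 34.0 and 38.0 in those of LIM1215. The lines differed more than the siRNAs did. The ratio was 126% in HT29 (interval 119% to 134%) and 112% in LIM1215 (interval 107% to 117%). Its log2 ratios of 0.31 and 0.16 became 0.16 and 0.04 once the trend on GC content and length was removed. KLF16 (ENSG00000129911, chromosome 19, 1852399 to 1863579, minus strand) was the most even member, with 29.5 FPKM in control and 32.4 in knockdown cells of HT29, and 27.7 and 29.2 in those of LIM1215. Its ratio was 110% in HT29 (interval 103% to 117%) and 106% in LIM1215, where the interval of 98.1% to 114% included no difference. Both log2 ratios of KLF16, 0.13 and 0.08, turned to −0.07 and −0.03 in the same way. A noncoding gene on the other strand, at 13.1 to 16.6 FPKM, shares 1224 bases with KLF16. Another on that strand, at 0.545 to 2.06 FPKM and higher in both knockdowns, shares 1770 bases. Part of the KLF16 signal is therefore uncertain.

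KLF9 (ENSG00000119138, chromosome 9, 70384604 to 70414657, minus strand), a target of glucocorticoid and thyroid hormone receptors, was scarce. Its FPKM was 2.26 in control and 2.24 in knockdown cells of HT29, and 0.487 and 0.555 in those of LIM1215. The siRNA groups were alike within each line, and the HT29 values were at least 4 times the LIM1215 values. Relative to control, knockdown cells stood at 99.5% in HT29 (interval 82.9% to 119%) and 114% in LIM1215 (interval 75.3% to 173%). The LIM1215 interval was wide, resting on 44.1 and 56.2 estimated fragments.

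By counting error alone, the interval lay above 100% of control for 9 members in HT29 and for 7 in LIM1215, and for 7 members in both lines. Of the 14017 compared genes with such an interval in both lines, 37.4% had it above 100% in HT29, 33.3% in LIM1215 and 20.0% in both. Since the members were chosen through this contrast, nothing is read from these counts. The ratio was larger in HT29 for 6 members and larger in LIM1215 for 4. FPKM corrects for gene length, so levels of different KLF genes can be added. The summed FPKM of all 18 KLF genes was 276 in the HT29 control and 405 in the knockdown, 1.47 times as high, and 443 in the LIM1215 control and 563 in the knockdown, 1.27 times as high. The 10 members made up 94.6% to 96.9% of that sum.

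**Figure D3:**
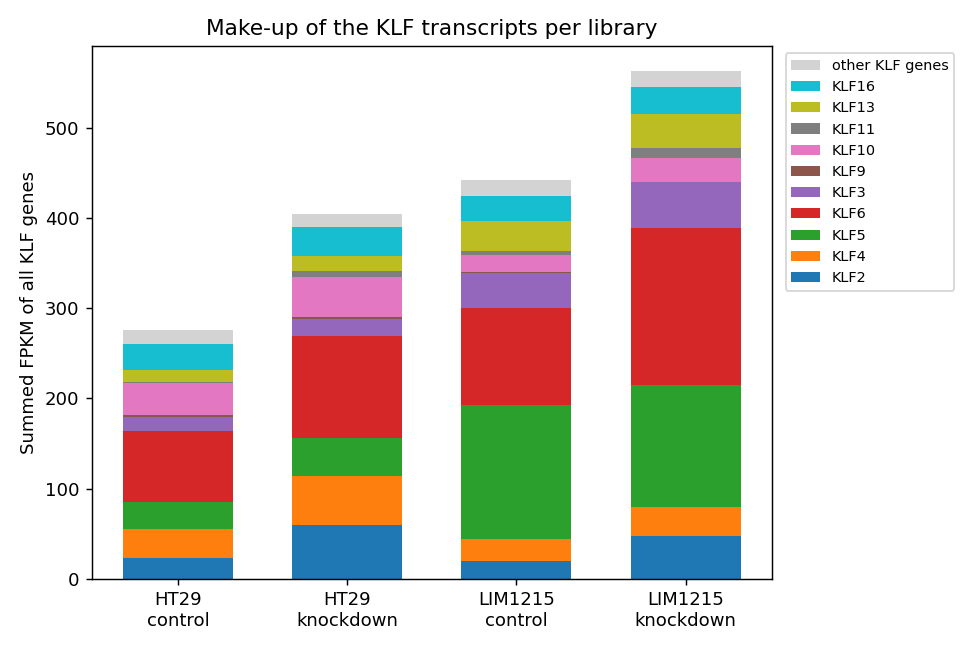
Summed FPKM of all KLF genes per library as stacked bars, 1 colour per member and grey for the other KLF genes. The bar reaches 276 in the HT29 control and 405 in its knockdown, and 443 and 563 in LIM1215; KLF5 fills 33.7% of the LIM1215 control bar and 10.8% of the HT29 control bar.

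The make-up of this pool differed between control and knockdown. The KLF2 share was higher in both knockdowns, but in LIM1215 the shares of KLF5 and KLF6 changed by more percentage points. Transcripts of KLF2 were 8.19% of the pool in the HT29 control and 14.8% in the knockdown, and 4.49% and 8.48% in LIM1215. The KLF4 share moved less, 11.8% to 13.4% and 5.39% to 5.68%. KLF5 held 10.8% and 10.5% in HT29, and 33.7% and 24.0% in LIM1215. KLF6 held 28.7% and 27.9% in HT29, and 24.3% and 30.9% in LIM1215, where it took the place of KLF5 as the most abundant member after knockdown. KLF4 stood at 1.10 times KLF5 in the HT29 control and 1.27 times in the knockdown, and at 0.160 and 0.237 times in LIM1215. The KLF4 to KLF5 ratio was thus higher in the knockdown of both lines, with the larger relative step in LIM1215. KLF2 went from 0.694 to 1.11 times KLF4 in HT29 and from 0.834 to 1.49 times in LIM1215.

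The control libraries showed how far the lines differ in KLF genes before any knockdown. In LIM1215, 4 members were at least 2-fold higher than in HT29 (KLF5, KLF3, KLF13 and KLF11) and KLF9 was 2-fold lower, against 12.0% and 7.42% of all genes compared. KLF5 stood at 502% of the HT29 level (interval 478% to 528%), KLF11 at 330%, KLF3 at 261% and KLF13 at 259%. KLF10 was at 52.3% and KLF9 at 21.6%. KLF16 at 93.6%, KLF2 at 88.1%, KLF6 at 136% and KLF4 at 73.3% lay nearer to equal. Scaling matters here. The median log2 ratio of all genes was 0.05 as deposited and −0.11 after rescaling to a common sum, and the split of 1773 genes higher and 1099 lower became 1527 and 1516. After that rescaling the members kept their direction, with KLF5 at 2.12, KLF3 at 1.16, KLF13 at 1.15 and KLF11 at 1.15, and KLF10 then passed 2-fold with −1.08. With a pseudocount of 5, KLF11 was at 0.59 and KLF9 at −0.40, both short of 2-fold. KLF2 was thus among the members whose control level differed least between the lines.

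Other genes of the family and its pathway were compared by lists drawn up from their known roles. Of 17 other KLF and SP genes, 9 had a mean FPKM of at least 1, and 1 of these, SP5, a Wnt-induced repressor, was 2-fold lower, in HT29. SP5 stood at 2.93 and 0.354 FPKM in HT29 and at 6.49 and 4.62 in LIM1215. The medians of the 9 were 0.06 in HT29 and 0.07 in LIM1215, near those of all genes. SP1, which binds the same GC boxes, had log2 ratios of 0.09 and 0.14, SP3 of −0.19 and 0.10, and KLF7, the most abundant KLF outside the set, of 0.06 and −0.03. KLF15 was lower in both lines, with −0.47 and −0.39, at 3.48 FPKM or less, and KLF12 had 0.03 and 0.19. The remaining 5 KLF genes were at 0.645 FPKM or less in each library.

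KLF2 and KLF4 are known to be switched on by the kinase cascade of MAP2K5 (MEK5) and MAPK7 (ERK5), through MEF2 factors, and KLF2 also by FOXO factors. Among 14 upstream genes, FOXO1 in HT29 was the sole gene past 2-fold, and medians were 0.18 and 0.11. The log2 ratios of MAP2K5 were 0.26 (HT29) and 0.75 (LIM1215), and those of MAPK7 0.28 and 0.36. MEF2A had 0.08 and 0.23, MEF2D 0.26 and 0.07, and MEF2C −0.49 and −0.73. FOXO1 stood at 1.65 and 4.73 FPKM in HT29 and at 2.45 and 3.11 in LIM1215. FOXO3 had 0.53 and 0.15, and FOXO4 −0.41 and 0.65, so neither family moved one way throughout.

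Of genes that act on KLF proteins, none of 7 turnover genes and none of 10 cofactor genes was past 2-fold, with medians of 0.19 and 0.14 for turnover and 0.09 and 0.13 for cofactors in HT29 and LIM1215. WWP1, a ubiquitin ligase of KLF2 and KLF5, had log2 ratios of −0.46 and −0.01. FBXW7, the recognition subunit for KLF5 and KLF2 degradation, had −0.04 and −0.12, and SIN3A, the corepressor of the KLF9 to KLF16 group, 0.09 and 0.17.

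Of 22 genes known as KLF targets, 16 had a mean FPKM of at least 1, with medians of 0.24 and 0.20. In HT29, 2 were 2-fold higher, CDKN1A (1.12) and MAOB (1.07), and in LIM1215 CDKN1A was higher (1.33) and ODC1 lower (−1.05). CDKN1A, the p21 inhibitor that KLF2, KLF4 and KLF6 are known to induce, is also a p53 target. ODC1, the polyamine enzyme that KLF4 is known to repress, stood at 105 and 72.6 FPKM in HT29 and at 230 and 110 in LIM1215. MAOB, known as a KLF11 target, stood at 1.87 and 5.02 FPKM in HT29 but at 0.396 and 0.708 in LIM1215, where its interval of 97.2% to 341% included no difference. NOS3, the endothelial KLF2 target, had log2 ratios of 0.24 and 0.39, and THBD, the other classical one, was at 0.119 FPKM or less. LGALS3, repressed by KLF3 in other cells, had 0.25 and 0.20. Whether any KLF protein acted on these genes was not measured.

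KLF2, KLF4, KLF6 and KLF10 are also induced early by growth factors and stress, so immediate early genes were set beside them. Of 15 such genes 14 were compared, all 14 with log2 ratios above 0 in HT29 and 13 of them in LIM1215 (all genes 53.9% and 53.1%), and the medians of 0.44 and 0.36 were near those of the KLF members. FOSL1 in HT29 was past 2-fold, with 1.10, against 0.61 in LIM1215. ZFP36 had 0.93 and 0.57, JUNB 0.73 and 0.35, FOSB 0.67 and 0.70, and FOS 0.46 and 0.76. IER3, the most abundant of them in 3 of the 4 libraries, had 0.01 and −0.20. What part these genes and the KLF members share was not tested.

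**Figure D4:**
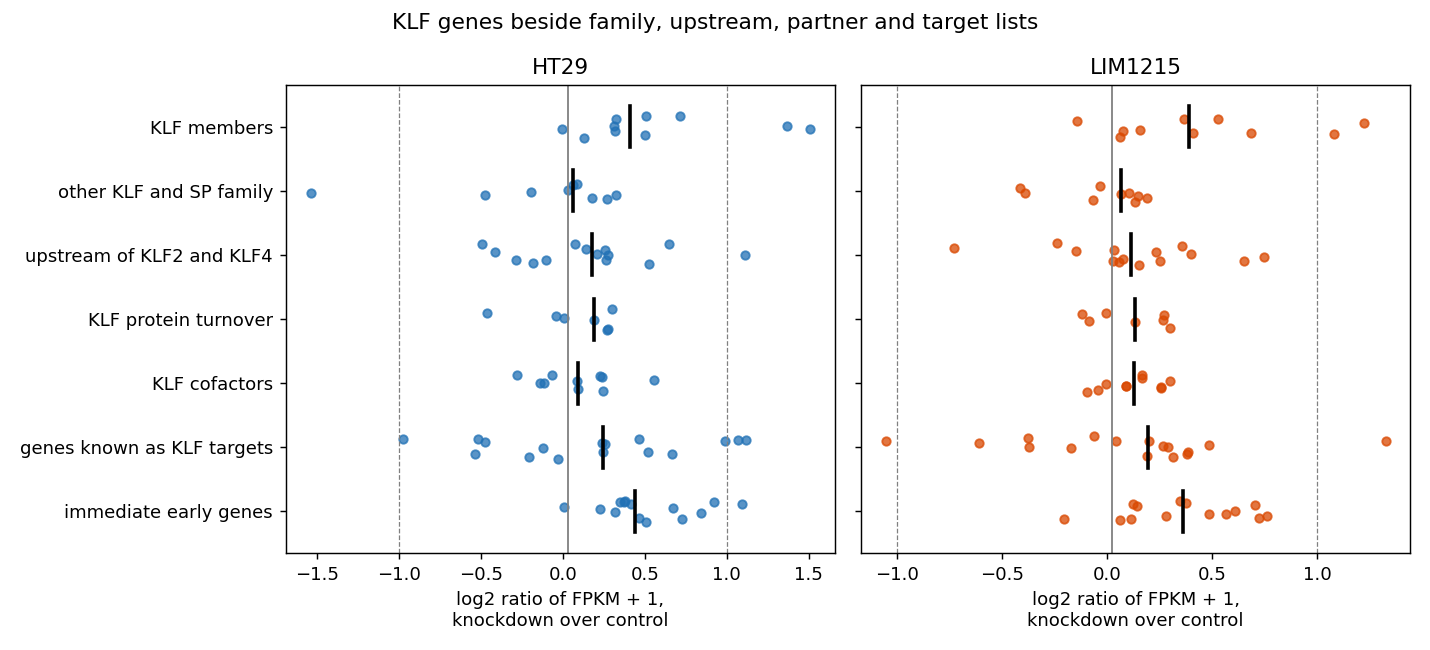
Log2 ratio of FPKM plus 1, knockdown over control, for each compared gene of 7 groups in HT29 (left) and LIM1215 (right); 1 point per gene, black bars for group medians, a grey line for the median of all genes and dashed lines at 2-fold. The members and the immediate early genes have medians from 0.36 to 0.44, and the other groups from 0.06 to 0.24.

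The coding genes whose pattern was most like that of a member were sought over the 4 libraries, by the distance between log2 values centred on each gene's mean, among 12199 coding genes. Nearest to KLF2 were ZCCHC3 (distance 0.23), BANF1 (0.30), BOD1 (0.32), P2RY11 (0.35) and MAP2K4 (0.37). ZCCHC3, at 10.5 FPKM in control and 23.9 in knockdown cells of HT29 and at 9.38 and 20.4 in those of LIM1215, was like KLF2 past 2-fold in both lines. Nearest to KLF4 were IFT46 (0.04), NDUFC2-KCTD14 (0.05) and NTN1 (0.06), all higher in both knockdowns and lower in LIM1215 than in HT29. Nearest to KLF5 were IGF2R (0.06), CES2 (0.14) and ECM1 (0.16). IGF2R followed KLF5 closely, with 14.03 and 19.8 FPKM in HT29 and 72.3 and 62.2 in LIM1215. No gene came as close to KLF2 as several did to KLF4. KLF2 was chosen for its change after knockdown, so nothing is read from this. A likeness over 4 libraries is a description only.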

How the data were processed

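RNA sequencing of 4 libraries, 1 per cell line and siRNA, was used, with groups taken from the titles. The authors deposited FPKM per Ensembl gene for each library. Per the labels' protocols, the kit was TruSeq Stranded mRNA. The submitters' processing notes name HISAT2 2.1.0, SAMtools 1.20, Cuffdiff, Cufflinks 2.2.1 and GRCh38, without their roles. The annotation, strand setting and filters are not given in the sources used here.

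Symbols, positions and canonical transcripts came from GENCODE release 44 on GRCh38, by identifier (56550 of 60658 matched). Ratios of knockdown to control were taken in log2 after adding 1 to each FPKM, for the 14803 genes with a mean of at least 1 FPKM, which understates differences of low genes. A gene was counted past 2-fold at a log2 ratio of 1. No p-value was computed, since each group had 1 library and the members were selected on the knockdown contrast. Depth was estimated from the steps of low FPKM values in genes with 1 transcript of at least 500 bases. The best fit put 76.9% to 78.2% of them within 0.03 of a whole fragment, so fragment numbers are estimates. Intervals are 95% Clopper-Pearson intervals of the rounded estimated fragments. The depth fit and the calls were tested on simulated data. FPKM depends on all fragments of a library, so abundant genes bear on every other value. Versions were Python 3.11.15, pandas 2.3.3, scipy 1.17.1 and statsmodels 0.14.6.

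The members, the 6 comparison lists and the 4 marker lists were chosen with earlier results of these data known. Named genes were all members, list genes past 2-fold or with a known role towards a KLF, and the genes nearest to KLF2 (5), KLF4 (3) and KLF5 (3). THBD and the named neighbours of KLF2 and KLF11 fall outside that rule and were chosen after their values were seen. Alternatives were pseudocounts of 0.1 and 5, median centring, a common sum, upper quartile scaling, no filter or a mean of at least 5 FPKM, a 1.5-fold threshold and, added after seeing the data, taking out a GC and transcript length trend (lowess, fraction 0.3).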

Additional observations from a re-analysis of the deposited data

Results flagged for a closer look

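The results below had a log2 ratio in one direction in HT29 and the other in LIM1215. None of these differences was tested, since each group had 1 library. The LIM1215 minus HT29 difference in log2 ratio was −0.64 for KLF5 (0.50 in HT29 and −0.14 in LIM1215), and the counting intervals of the lines lay on opposite sides of 100% of control. It was 0.069 for KLF9 (−0.0050 in HT29 and 0.06 in LIM1215), whose intervals included 100% in both lines. Among related genes it was −0.091 for KLF7, 0.30 for SP3, 1.06 for FOXO4 and −0.21 for IER3. For IGF2R and ECM1, picked for their likeness to KLF5, it was −0.68 and −0.68. Of the neighbours of KLF2 and KLF11, SLC35E1 had −0.15 and TAF1B −0.55.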

How the results depend on the processing

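KLF2 stayed past 2-fold in both lines under each alternative tried, where its log2 ratios ranged 1.23 to 1.40 (HT29) and 1.08 to 1.26 (LIM1215). It was 1.24 and 1.08 with a pseudocount of 5, 1.23 and 1.12 after removal of the GC and length trend, and 1.30 in HT29 after rescaling to a common sum. KLF11 was 0.76 in HT29 and 0.72 in LIM1215 with a pseudocount of 5, so that 1 member was past 2-fold in each line. With a pseudocount of 0.1, KLF11 was 1.99 in HT29 and 1.22 in LIM1215. In HT29 it was 1.47 after centring, 1.502 with upper quartile scaling and 1.46 after trend removal. The median over the members in HT29 was 0.34 after rescaling to a common sum and 0.50 with a mean of at least 5 FPKM, which leaves out KLF9. At 1.5-fold, 3 members were past the threshold in each line, KLF4 joining in HT29 and KLF6 in LIM1215. Of the 30 member values, 2 changed sign under an alternative, both of KLF16. Counts over all genes moved with the pseudocount, from 274 higher and 288 lower in HT29 to 570 and 558 with 0.1 and 87 and 94 with 5, and from 249 and 263 in LIM1215 to 476 and 508 and to 68 and 88. The 1.5-fold threshold gave 1165 and 1023 genes in HT29, and 982 and 915 in LIM1215, and without the filter 396 and 406, and 395 and 375. With a mean of at least 5 FPKM they were 128 and 144, and 89 and 113. Rescaling to a common sum gave 264 and 389 in HT29, and centring 252 and 317. Between the controls, 1773 genes higher and 1099 lower in LIM1215 became 947 and 353 with a pseudocount of 5, 1107 and 563 with a mean of at least 5 FPKM, and 3220 and 2409 at 1.5-fold. No replicate numbers pair the libraries. A fit over both lines with the line as a block would leave 1 residual degree of freedom and was not run, since the members were selected on that contrast. Depth limits KLF9 most, with 44.1 estimated fragments in the LIM1215 control.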
